A study of Mus musculus with 8 samples.

Results

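Neutrophils carry ready-made proteins in granules that are filled in a fixed order while the cells mature in the bone marrow. The secondary and tertiary granule genes are those switched on after the primary granule genes, and 10 of them were examined here: Ltf, Lcn2, Camp, Ngp, Chil3, Mmp8, Mmp9, Olfm4, Pglyrp1 and Retnlg. The members were chosen by name, and their probes were all non-control probes of the array whose accession is a RefSeq transcript of the gene. Of the 10 genes, 9 had such a probe, with 10 probes in all out of 55681 on the array, Camp having 2. No probe could be matched to Olfm4 in the gene table used, and it was not analysed here. All 9 were among the 21240 genes tested.

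Expression was measured in 4 ATF3 KO and 4 WT samples of Ly6G+ cells from mouse bone marrow. ATF3 is a stress-induced transcription factor, and the study asked about its part in neutrophil migration. Both genotypes were on a C57BL/6 background, the cells were flushed from leg bones and taken with magnetic beads against Ly6G, a neutrophil surface protein, and each RNA was hybridised to its own single-colour Agilent array. The labels do not give the age of the mice, how Atf3 was deleted or whether the samples came from separate animals, so p-values measure only the spread between these samples. The series text has RNA isolated directly after the sort, whereas the description of 7 samples, all but WT replicate 1, speaks of a week in methylcellulose with 4-OHT, and this conflict was not resolved. The 8 arrays lay on 1 slide with the genotypes in different rows, so that the row and the genotype cannot be told apart.

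The groups are named by their labels. The 1 probe for Atf3 did not verify them, since its log2 signal was higher in ATF3 KO (from 1.00 to 1.53) than in WT (from 0.65 to 0.82), and the labels do not say if the deletion covers its sequence. Of the 6 neutrophil markers listed, 5 had a probe, and these (S100a8, S100a9, Csf3r, Cxcr2 and Itgam) were all among the genes tested. No probe was matched to Ly6g. The array's 75th percentile of signal, used below as the common scale, was 161, 154, 138 and 113 in ATF3 KO and 215, 216, 164 and 151 in WT (exact permutation test, two-sided, p = 0.0857). Spots above background made up between 46.8 and 53.9% of an array in ATF3 KO and between 47.3 and 56.1% in WT. Precision is limited by having 4 arrays of each genotype.

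Secondary (specific) granules form in myelocytes and metamyelocytes and tertiary (gelatinase) granules slightly later, and their genes are transcribed mainly at those stages. Transcription of the secondary granule genes depends on the factor C/EBP epsilon. The proteins bind iron or its microbial carriers, kill microbes, recognise their walls or digest the matrix that a neutrophil passes on its way into tissue.

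No difference between the genotypes in these 9 genes passed the test against the spread of the samples. At an adjusted p under 0.05 in limma's test over all genes, 0 of 9 passed, where 0.447% of all 21240 genes passed (95 genes, of which 78, or 0.367% of all, were higher in ATF3 KO and 17, or 0.08%, lower). At an unadjusted p under 0.05 there were 2, Camp and Ltf, against 23.9% of all genes. That count moved with the processing, from 0 of 9 (quantile normalization, where 20.9% of all genes were under 0.05) to 7 of 9 (percentile over probes detected on all arrays, where 18.6% were). With 1 array left out it is given here with the share of all genes under 0.05. It was 0 without ATF3 KO replicate 4 (17.3%), WT replicate 1 (16.2%) or WT replicate 2 (13.8%). It was 1 without ATF3 KO replicate 3 (32.9%) or WT replicate 3 (22.2%). It was 2 without ATF3 KO replicate 1 (27.2%) or ATF3 KO replicate 2 (15.5%), and 6 without WT replicate 4 (20.3%). For 0 of 9 did the 4 values of one genotype lie apart from the 4 of the other, against 15.1% of all genes (878 genes, or 4.13%, with ATF3 KO higher and 2324 genes with ATF3 KO lower). The values below are log2 of the processed signal over that of the 75th percentile, where 1 unit is a doubling, and differences are ATF3 KO minus WT. On this scale the median difference of all genes was −0.11 and that of the 9 members was 0.20, or 0.31 above it. Of the members 7 of 9 had a positive difference (77.8%), against 34.5% of all genes. These counts describe the list and carry no test. Signal level was not matched here. Of the 45 genes at a mean level of 10 or more, 6 of them members, 95.6% had a positive difference. In that range the median was 0.24 for the members and 0.35 for the other 39 genes.

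**Figure D1:**
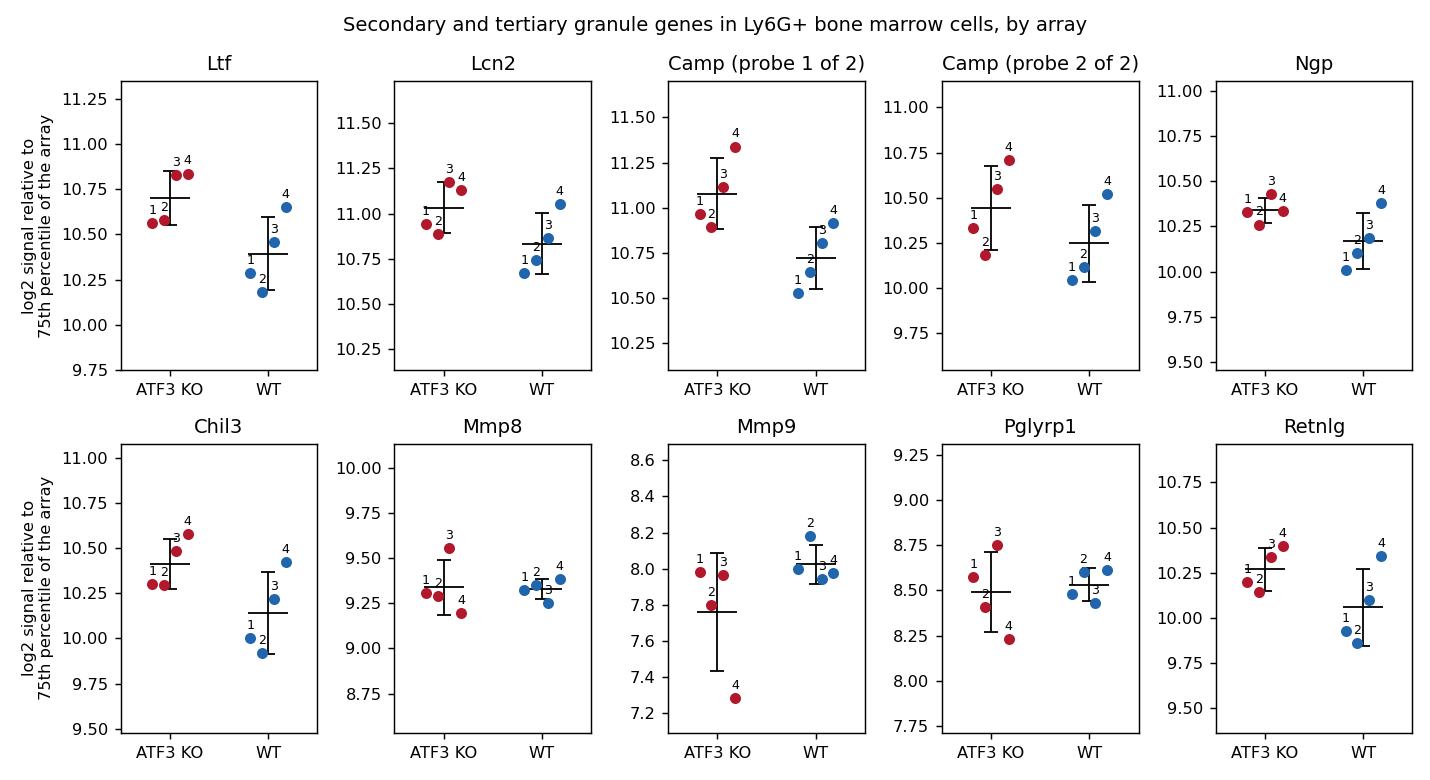
Log2 signal, scaled to the 75th percentile of the array, for each probe of the members (y axis, each panel spanning the same range), with 4 ATF3 KO arrays at left and 4 WT arrays at right in every panel. Points are arrays with their replicate number, and bars are the mean with SD (n = 4). The genotypes overlap in every panel, and Mmp9 in ATF3 KO replicate 4, at 7.28, lies below all its other values.

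The first members are those that withhold iron. Ltf encodes lactoferrin, which binds free iron, and its signal was 10.57, 10.58, 10.83 and 10.84 in ATF3 KO against 10.29, 10.18, 10.46 and 10.65 in WT. The lowest 2 values were WT replicates 1 and 2, and WT replicate 4 lay among the ATF3 KO values. The difference was 0.31 (SE 0.13, 95% interval from 0.02 to 0.60, limma adjusted p = 0.193). Lcn2 encodes lipocalin 2, which captures the iron carriers of bacteria. It had 10.94, 10.89, 11.18 and 11.13 in ATF3 KO against 10.67, 10.74, 10.87 and 11.05 in WT. Again WT replicate 4 lay inside the ATF3 KO range, and the difference of 0.20 (SE 0.12, interval from −0.07 to 0.47) did not pass (limma adjusted p = 0.301).

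Camp and Ngp encode proteins of the cathelicidin family, Camp giving the antimicrobial peptide CRAMP. The brighter Camp probe, which stood for the gene, gave 10.97, 10.89, 11.12 and 11.34 in ATF3 KO against 10.53, 10.65, 10.80 and 10.92 in WT, so that only ATF3 KO replicate 2 and WT replicate 4 crossed. Its difference of 0.35 (SE 0.13, interval from 0.06 to 0.65) had the lowest adjusted p among the members (limma adjusted p = 0.167). The other Camp probe gave 10.33, 10.18, 10.55 and 10.71 in ATF3 KO against 10.05, 10.12, 10.32 and 10.52 in WT, with more overlap. Its difference was 0.19 (SE 0.15), with a limma adjusted p of 0.419 where every probe was tested. The probes of this gene thus disagreed in size. Within an array, where no scaling enters, the log2 ratio of the brighter to the other probe was 0.63, 0.71, 0.57 and 0.63 in ATF3 KO against 0.48, 0.53, 0.49 and 0.40 in WT. That ratio was picked after its values were seen and was not tested. Ngp, the neutrophilic granule protein, had 10.33, 10.26, 10.43 and 10.34 in ATF3 KO against 10.01, 10.104, 10.19 and 10.38 in WT. Its difference was 0.17 (SE 0.11, interval from −0.07 to 0.41, limma adjusted p = 0.316).

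Ltf, Camp and Ngp all lie on chromosome 9, as does Mmp8 (difference 0.01). Lcn2, which captures bacterial iron carriers and also had a positive difference (0.20), lies on chromosome 2, and its sequence is not shown. The 150 bases just before the annotated start of Ltf, Camp and Ngp are shown as examples of antimicrobial members with a positive difference on this scale. They come from RefSeq in build GRCm38.p6, where Ltf's window is chr9:111019142-111019291 on the plus strand, Camp's chr9:109849457-109849606 on the minus strand and Ngp's chr9:110419658-110419807 on the plus strand. Capitals mark matches to TTNNGNAA, a C/EBP motif, on either strand.
Ltf: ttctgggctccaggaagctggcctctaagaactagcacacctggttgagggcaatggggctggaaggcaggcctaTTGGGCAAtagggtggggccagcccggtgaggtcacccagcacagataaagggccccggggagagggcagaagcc
Camp: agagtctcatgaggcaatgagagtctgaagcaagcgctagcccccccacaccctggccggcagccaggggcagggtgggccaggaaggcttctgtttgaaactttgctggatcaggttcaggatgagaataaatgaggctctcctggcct
Ngp: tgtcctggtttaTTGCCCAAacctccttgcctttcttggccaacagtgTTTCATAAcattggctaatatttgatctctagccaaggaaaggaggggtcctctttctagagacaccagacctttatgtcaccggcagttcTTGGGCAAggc
Ltf held 1 match in the printed stretch, Ngp 3 and Camp 0. RefSeq promoters were given for 9 of the 10 genes, Olfm4 included and Mmp9 not. In the 250 bases before the start, 7 of these 9 held the C/EBP motif, which 36.85% of 32851 promoters held. The motif of PU.1, GAGGAA on either strand, was in 5 of 9 against 23.25% of all. The motifs to which ATF3 and its partners can bind, TGACGTCA and TGANTCA, each the same on both strands, were in 0 of 9, against 1.55% and 6.75% of all. The motifs can overlap one another, and a match only describes the letters.

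Chil3 encodes the chitinase-like protein Ym1, a lectin with no known chitinase activity. It had 10.30, 10.29, 10.48 and 10.58 in ATF3 KO against 10.0001, 9.92, 10.22 and 10.42 in WT. WT replicate 4 lay between ATF3 KO replicates, and the difference of 0.27 (SE 0.13, interval from −0.03 to 0.57) did not pass (limma adjusted p = 0.235). Chil4, a close relative whose RNA could reach the same probe, had a probe of its own with a difference of −0.25 (SE 0.11, limma adjusted p = 0.210). Retnlg encodes resistin-like gamma, a secreted protein of the resistin family found in mouse neutrophils. It had 10.20, 10.14, 10.34 and 10.40 in ATF3 KO against 9.93, 9.86, 10.102 and 10.34 in WT, a difference of 0.21 (SE 0.13, interval from −0.07 to 0.50, limma adjusted p = 0.303). As in Ltf, Lcn2 and Chil3, only WT replicate 4 among the WT arrays reached the ATF3 KO range.

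The remaining members are a wall sensor and the matrix proteases. Pglyrp1 encodes a protein that binds bacterial peptidoglycan. Its signal was 8.57, 8.41, 8.75 and 8.23 in ATF3 KO, which enclosed the WT values of 8.48, 8.60, 8.43 and 8.61. The difference was −0.04 (SE 0.13, interval from −0.32 to 0.24, limma adjusted p = 0.847). Mmp8 encodes the neutrophil collagenase of secondary granules, with 9.31, 9.29, 9.55 and 9.20 in ATF3 KO against 9.32, 9.35, 9.25 and 9.38 in WT. Its difference was 0.01 (SE 0.10, interval from −0.22 to 0.24, limma adjusted p = 0.958). The interval limits as folds were 0.801 and 1.18 for Pglyrp1 and 0.857 and 1.18 for Mmp8 on this scale. The width of the interval depended on the scaling. It was larger with no scaling, where the lower log2 limit was −0.93 for Pglyrp1 and −0.87 for Mmp8. It was also larger with spike-in scaling, where that limit was −0.81 for Pglyrp1 and −0.76 for Mmp8. There limma gave every member the same SE, 0.30, so that width does not show the spread of the single gene. With cyclic loess it was smaller, the log2 limits being −0.16 and 0.17 for Pglyrp1 and −0.11 and 0.16 for Mmp8.

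Mmp9 encodes gelatinase B, the marker of tertiary granules. It had 7.98, 7.80, 7.97 and 7.28 in ATF3 KO against 7.998, 8.18, 7.94 and 7.98 in WT. ATF3 KO replicate 4 stood below the other arrays, while ATF3 KO replicates 1 and 3 lay inside the WT range. The difference was −0.27 (SE 0.16, interval from −0.62 to 0.09, limma adjusted p = 0.302), and −0.11 without ATF3 KO replicate 4. The Mmp9 probe was printed as 10 spots on each array, which shows how well a single array measured it. The SD over the 10 spots lay between 0.03 and 0.05 in ATF3 KO and between 0.03 and 0.05 in WT arrays. In ATF3 KO replicate 4 the spots ran from 7.21 to 7.36, and the lowest spot of any other array was 7.76. The low value was thus read by all 10 spots of that array. ATF3 KO replicate 4 also held the highest value of 4 other members on this scale, and it had the lowest 75th percentile, 113, and the lowest share of spots above background, 46.8%. The part of these in its Mmp9 value was not tested.

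**Figure D2:**
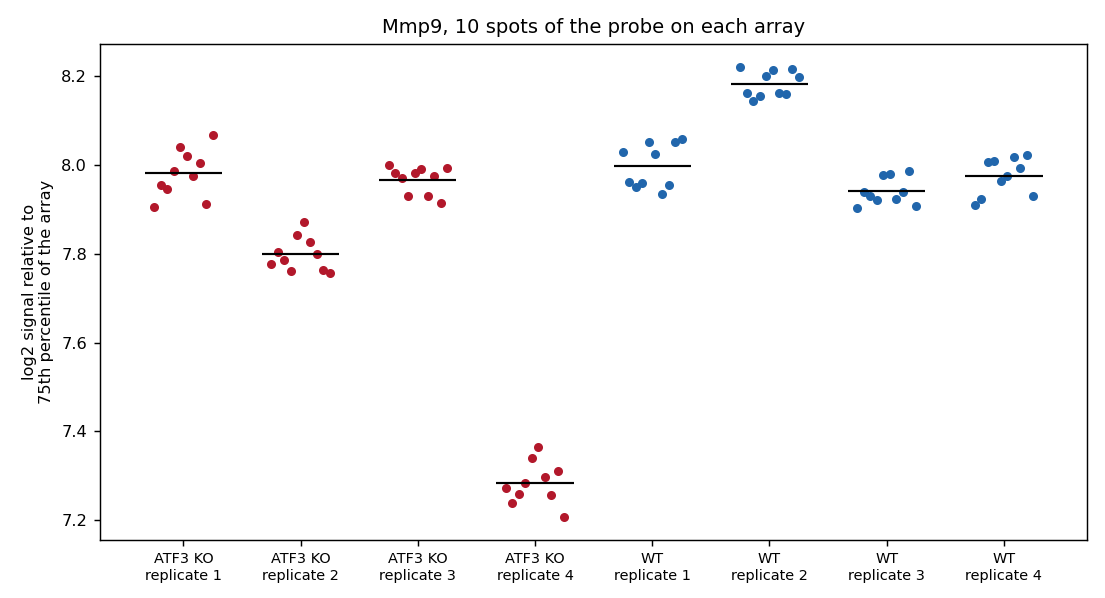
Log2 signal of the 10 Mmp9 spots (y axis, relative to the array's 75th percentile) on each of the 4 ATF3 KO arrays, left, and the 4 WT arrays, right, with the mean as a line. Spots of an array lie close together, and those of ATF3 KO replicate 4, from 7.21 to 7.36, lie apart from the rest.

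Within an array, Mmp9 could be set against the mean of the other 8 members with no scaling between arrays. This log2 difference was −2.17, −2.29, −2.37 and −2.97 in ATF3 KO against −1.90, −1.74, −2.10 and −2.24 in WT. WT replicate 4 lay among the ATF3 KO values, so the genotypes overlapped. Camp minus Mmp9 was 2.98, 3.09, 3.15 and 4.05 in ATF3 KO against 2.53, 2.46, 2.86 and 2.94 in WT, without overlap, and was picked after its values were seen, so it was not tested. These within-array values compare how the members moved and say nothing of which is the more abundant.

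For most members the sign of the difference depended on the scale. Unscaled, the processed signal of Camp's brighter probe was 321105, 292276, 307444 and 291487 in ATF3 KO against 317710, 345400, 294148 and 291562 in WT, which overlapped. Its other probe had 207161, 178842, 207137 and 188523 in ATF3 KO against 227250, 239625, 209668 and 221197 in WT, all 4 ATF3 KO values being the lower. The share of all genes lying apart in this way unscaled was not counted. With no scaling, 52.4% of all genes had an unadjusted limma p under 0.05, and their median difference was −0.50. For Ltf the unscaled signal was 243347, 235492, 251932 and 205813 in ATF3 KO against 268880, 250627, 231112 and 242061 in WT. Thus both genes had a higher mean in ATF3 KO relative to the 75th percentile and a lower mean unscaled. All 9 members had their lowest unscaled signal in ATF3 KO replicate 4, and their highest in WT replicate 2 (6 genes) or WT replicate 1 (3 genes). The median difference of the members was −0.19 with no scaling, where that of all genes was −0.50, and 0.02 when the arrays were scaled to the spike-in controls, where that of all genes was −0.29. With quantile normalization it was −0.06, against −0.05 for all genes. It was higher, at 0.35, when only probes detected on every array entered the 75th percentile, where that of all genes was 0.04. In these 4 settings, as in the main test, 0 of the 9 genes passed.

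**Figure D3:**
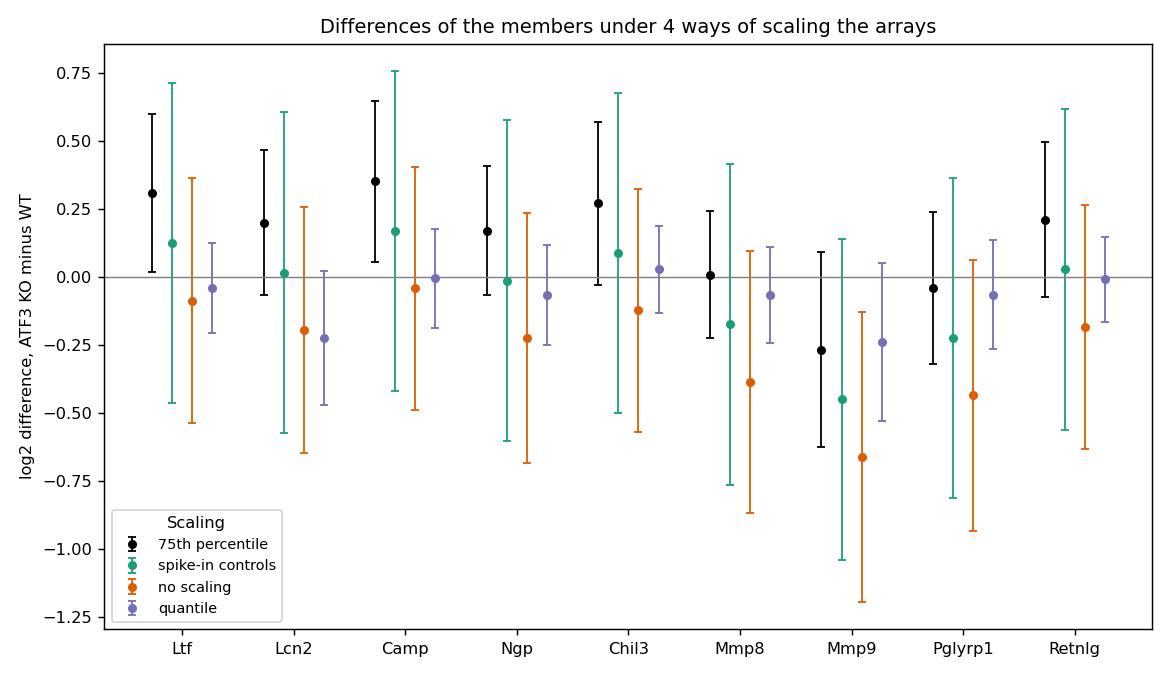
Log2 difference, ATF3 KO minus WT, of each member (y axis) with its 95% interval from limma, under 4 scalings of the 8 arrays shown by colour. With spike-in scaling every member had the same SE, 0.30, so those intervals do not show the spread of the single gene. Differences of Ltf, Lcn2, Camp, Ngp, Chil3 and Retnlg are above 0 relative to the 75th percentile and below 0 with no scaling, and Mmp9 and Pglyrp1 are below 0 in all 4.

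The brightest genes of the array had mostly positive differences, members and others alike. Of 45 genes whose mean level was 10 or more, 43 had a positive difference, with a median of 0.33, and 6 of the 45 were members (Ltf, Lcn2, Camp, Ngp, Chil3 and Retnlg). The 6 members had a median of 0.24 and the other 39 genes one of 0.35. Among the 344 genes with a mean level from 8 to 10, which hold Mmp8 and Pglyrp1, the median was −0.02, and among the 1110 from 6 to 8, which hold Mmp9, it was −0.13. Spike-in controls were read on the same arrays. Probes named E1A detect control RNAs that Agilent's kit adds to each sample, and the brightest of them, with unscaled signals from 258545 to 306091, differed by 0.31 relative to the 75th percentile and by −0.09 unscaled. The 7 dimmer ones above background on all arrays differed by 0.11 to 0.25 relative to the 75th percentile. None of the readings of member spots was flagged as saturated by the scanner software. The part of signal level in the members' differences was not tested.

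**Figure D4:**
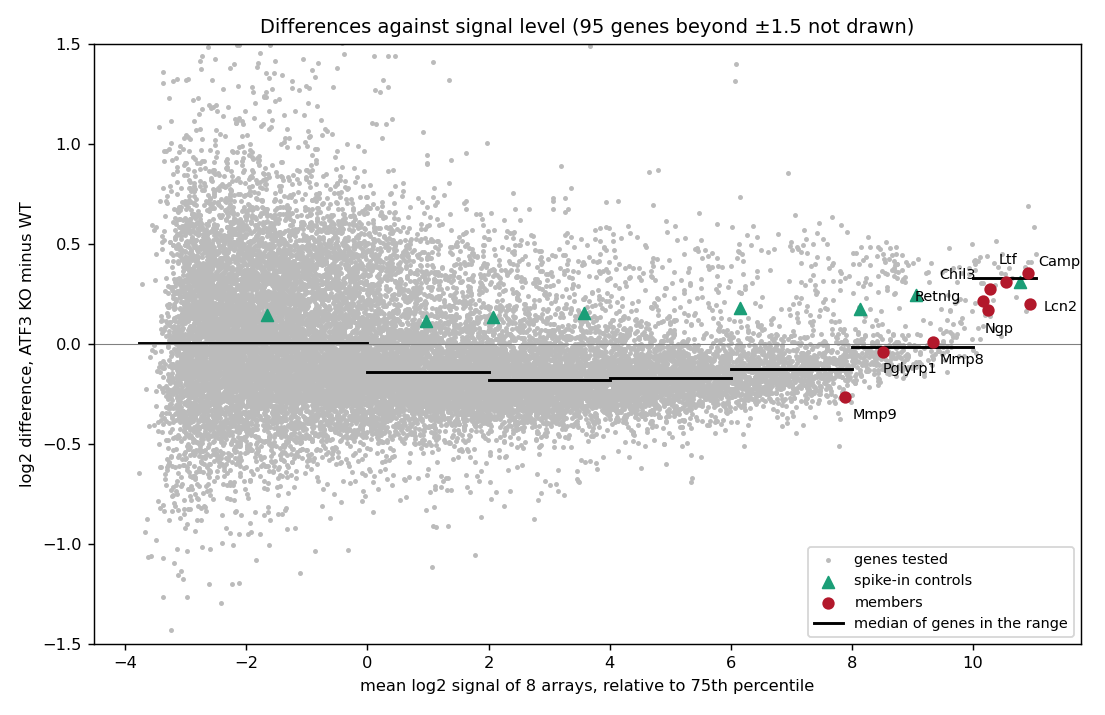
Log2 difference, ATF3 KO minus WT (y axis), against mean log2 signal relative to the 75th percentile (x axis) for all genes tested (grey), the spike-in controls (green) and the members (red), with black lines at the median of genes in each range of level. The 6 members above a level of 10 lie between 0.17 and 0.35, where the median of that range is 0.33, and Mmp8, Pglyrp1 and Mmp9 lie lower.

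The arrays were also compared by how often each held the highest or the lowest value of a member. ATF3 KO replicates 3 and 4 held the highest value of 4 members each, and WT replicates 1 and 2 the lowest value of 3 each, as did ATF3 KO replicate 4. The SD within a genotype was 0.17 at the median of the members (from 0.12 to 0.24), against 0.20 at the median of all genes, close to each other. The genes whose course over the 8 arrays was closest to the mean course of the members were Hp (root mean square distance 0.035 on the log2 scale), Msrb1 (0.040), Anxa1 (0.054), Skint7 (0.059) and H1f4 (0.059), out of 11641 named genes that varied at least as much. Hp encodes haptoglobin and Anxa1 annexin A1, and both proteins are also stored in neutrophil granules. Their differences were 0.15 (SE 0.11, limma adjusted p = 0.380) and 0.17 (SE 0.11, limma adjusted p = 0.354).

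Other genes around these granules were looked at as lists, by the same fit, and none of their members passed over all genes. The lists were chosen with earlier results of these data known. Of 18 other proteins of granules, their membranes and the cytosol, 17 were tested and 0 passed, with 7 positive differences and a median of −0.06. The smallest p-values were those of Itgam, the integrin CD11b stored in these granules (0.36, SE 0.13, limma adjusted p = 0.166), the calcium-binding alarmins S100a8 (0.36, SE 0.13) and S100a9 (0.38, SE 0.14), and Cybb, the catalytic subunit of the NADPH oxidase (−0.33, SE 0.12, limma adjusted p = 0.171). Ptx3 was not above background on any array. Of 11 primary granule genes, 10 were tested and 0 passed, with 1 positive difference and a median of −0.10, close to that of all genes. Among them were the membrane protein gene Cd63 (−0.26, SE 0.10), the serine protease gene Prss57 (−0.33, SE 0.16), the dipeptidase gene Ctsc (−0.24, SE 0.12) and the ficolin gene Fcnb (−0.19, SE 0.12), with limma adjusted p from 0.189 to 0.321.

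The regulators of granule genes had a median of −0.17, with 0 of 11 passing and 1 positive difference, that of the G-CSF receptor gene Csf3r (9.03 ± 0.14 in ATF3 KO and 8.72 ± 0.12 in WT, SD, n = 4, limma adjusted p = 0.159). Cebpa, a factor of early granulocyte commitment, averaged 1.73 ± 0.27 in ATF3 KO and 2.09 ± 0.14 in WT (limma adjusted p = 0.188). The repressor gene Gfi1 (−0.24, SE 0.10) and Runx1 (−0.23, SE 0.10) had limma adjusted p of 0.195 and 0.203. Cebpe, which encodes C/EBP epsilon and was named after its values were seen, averaged 8.53 ± 0.21 in ATF3 KO and 8.68 ± 0.14 in WT (SD, n = 4, limma adjusted p = 0.448). Inhibitors and receptors of the granule proteins had 0 of 9 passing and no positive difference, with a median of −0.19. Signs went with signal level over all genes. In the level ranges from 0 to 2, 2 to 4, 4 to 6 and 6 to 8, positive differences made up 27.4, 15.8, 12.1 and 16.9%. The medians there were −0.14, −0.18, −0.17 and −0.13. Other genes of this list lay outside these ranges. Slc22a17, P2rx7 and Timp1 had mean levels below 0, where 50.4% of all genes were positive, with a median of 0.003. Slpi had a mean level of 10.05, and of the genes at 10 or more 95.6% were positive. The part of signal level in this list was not tested. Lrp1, an endocytic receptor of lactoferrin and of MMP9, averaged 1.40 ± 0.18 in ATF3 KO and 1.94 ± 0.13 in WT, a difference of −0.54 (SE 0.12) that did not pass (limma adjusted p = 0.0903). It was followed by Slc22a17, a receptor of lipocalin 2 (−0.29, SE 0.16), Reck, a membrane inhibitor of MMP9 (−0.24, SE 0.14), and P2rx7 (−0.22, SE 0.14).

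Relatives of the members were measured too. Of 11 paralogs 6 were tested and 0 passed (median −0.16), among them the chitinase gene Chit1 (−0.43, SE 0.14, limma adjusted p = 0.142), the resistin gene Retn (−0.23, SE 0.15) and Pglyrp3 (0.29, SE 0.22). Retnla, Pglyrp2 and Pglyrp4 were not above background on any array. Genes of mature neutrophils had 0 of 12 passing (median −0.02, 6 positive), Csf3r having the smallest p, followed by G0s2 (−0.32, SE 0.14), the decoy receptor gene Il1r2 (0.21, SE 0.10) and Trem3 (−0.25, SE 0.12). Proliferation genes, which mark the dividing stages before and during secondary granule formation, had 0 of 11 passing (median 0.02, 6 positive), with Top2a (−0.32, SE 0.18), Tyms (0.19, SE 0.13), Plk1 (0.12, SE 0.16) and Pcna (−0.11, SE 0.17) having the smallest p. The differences of all these lists include the shift of −0.11 of all genes, which varied with signal level.

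Markers of other cells in the sorted fraction were measured beside these genes. In this bulk RNA, fewer cells of a type and less RNA per cell cannot be told apart. All 9 B lineage markers had positive differences (median 0.56), and their summed signal, in multiples of the array's 75th percentile, lay between 90.4 and 101 in ATF3 KO and between 43.1 and 65.3 in WT, without overlap. The differences ran from 0.28 for Pax5 to 1.81 for Jchain (SE 0.35, limma adjusted p = 0.067). The log2 signal of Jchain, a large part of that sum, lay between 5.21 and 5.71 in ATF3 KO and between 3.01 and 4.80 in WT. Of the 9 monocyte and macrophage markers 8 were tested, 2 with positive differences (median −0.29), and their sum lay between 257 and 335 in ATF3 KO and between 311 and 366 in WT. Of the 6 erythroid markers 4 had positive differences (median 0.14), and their sum lay between 3412 and 4588 in ATF3 KO and between 3154 and 3820 in WT, most of it from the hemoglobin genes Hbb-bt (0.23, SE 0.13, limma adjusted p = 0.271) and Hba-a1 (0.17, SE 0.12). All 5 megakaryocyte and platelet markers had positive differences (median 0.53), and their sum lay between 24.8 and 66.2 in ATF3 KO and between 22.6 and 34.4 in WT. Of the 7 eosinophil markers 4 had positive differences (median 0.07), and their sum, most of it from Ear2 (−0.02, SE 0.15), lay between 189 and 290 in ATF3 KO and between 193 and 250 in WT. Il5ra (0.41, SE 0.11, limma adjusted p = 0.123) and Prg2 (0.71, SE 0.25, limma adjusted p = 0.157) were higher in every ATF3 KO array than in any WT array, while Epx (0.64, SE 0.26) and Siglecf (−0.42, SE 0.15) overlapped. These eosinophil genes were named after their values were seen. The 4 T and NK cell markers tested, of 6, had 1 positive difference (median −0.19) and summed to between 14.3 and 20.7 in ATF3 KO and between 19.3 and 22.02 in WT, Klrb1c being at background on every array. The 5 stem and progenitor markers had 3 positive differences (median 0.01) and summed to between 4.77 and 5.41 in ATF3 KO and between 5.31 and 6.17 in WT, and 1 of them passed, Gata2 (0.75, SE 0.13, limma adjusted p = 0.0494). The 5 neutrophil markers, chiefly S100a8 and S100a9, had 4 positive differences (median 0.36). They summed to between 4188 and 5421 in ATF3 KO and between 3230 and 4122 in WT, without overlap, on the same scale. The negative one was Cxcr2 (−0.09, SE 0.12). S100a8 and S100a9 had mean levels above 10, a range where 43 of 45 genes had positive differences, with a median of 0.33. The part of all these cell types in the members' values was not tested.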

How the data were processed

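Labelled RNA from 8 samples, 4 ATF3 KO and 4 WT, was read on single-colour Agilent arrays on 1 slide. The intensity used was the processed signal deposited by the authors, background-subtracted by the scanner software, Agilent Feature Extraction (the file headers give version 10.9.1.1 and the submitters' processing notes 10.10). The authors also deposited a table of log2 values, whose scaling is not given in the sources used here, and it served as an alternative. Outlier and control spots were left out, spots of a probe were averaged, and the 75th percentile of each array was subtracted on the log2 scale. Probes above background on at least 4 of 8 arrays (27948 of 55681) were kept, and the brightest stood for its gene (21240 genes). Gene names came from RefSeq transcripts through a table of build GRCm38.p6, whereas the array files use another build. Genotypes were compared with limma 3.58.1 in R 4.3.3 (lmFit, eBayes, Benjamini-Hochberg over all genes, threshold 0.05). In simulated data of this comparison over 21240 genes, 82% of genes changed 2-fold and 28% of those changed 1.5-fold were recovered, with 15 false calls among 167. The simulated noise was independent between genes, without shifts shared over an array, so these rates need not hold for the real arrays.

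The members and the gene lists were chosen with earlier results of these data known. All members were named whatever their values, with up to 4 genes of smallest p from each list and the 5 genes of most similar course. Alternatives covered background, scaling, filter, probe choice, variance model, replicate block and leaving out each array. Scaling by spike-ins, no scaling and cyclic loess were added after seeing the data. The normexp correction took the median signal, since the files hold no column of mean signal.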

Additional observations from a re-analysis of the deposited data

How the results depend on the processing

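Under all 23 alternatives 0 of the 9 members passed, the lowest limma adjusted p over 198 tests being 0.0623, for Mmp9 with no scaling. The number of genes called higher in ATF3 KO (78) was 152 with normexp, 22 with quantile normalization, 176 with median scaling, 35 with the percentile over detected probes, 4 with no filter, 136 with trend and robust variances, 119 with no scaling, 138 with spike-in scaling, 44 with every probe tested, and 3 to 181 with 1 array left out. The number called lower (17) was 84 with normexp, 9 with quantile normalization, 41 with median scaling, 9 with the percentile over detected probes, 6 with no filter, 56 with trend and robust variances, 36 with array weights, 11 with the replicate block, 40 in the deposited log2 table, 1218 with no scaling, 66 with spike-in scaling, 11 with cyclic loess, and 2 to 45 with 1 array left out. The members' median difference (0.20) was −0.06 with quantile normalization, −0.075 in the deposited table, −0.19 with no scaling and 0.017 with spike-in scaling, 0.122 with normexp and 0.125 with median scaling, and 0.352 with the percentile over detected probes, and relative to all genes (0.31) it was −0.019 with quantile normalization and −0.048 in the deposited table.

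Signs turned in 27 of the 198. With quantile normalization the differences were −0.040 for Ltf, −0.22 for Lcn2, −0.0037 for Camp, −0.064 for Ngp, −0.065 for Mmp8 and −0.0083 for Retnlg. In the deposited table they were −0.083 for Ltf, −0.13 for Lcn2, −0.028 for Camp, −0.06 for Ngp and −0.12 for Mmp8. With no scaling they were −0.086 for Ltf, −0.19 for Lcn2, −0.041 for Camp, −0.22 for Ngp, −0.12 for Chil3, −0.38 for Mmp8 and −0.18 for Retnlg. Spike-in scaling gave −0.012 for Ngp and −0.17 for Mmp8. Mmp8 was −0.12 with normexp, −0.066 with median scaling, −0.063 without ATF3 KO replicate 3 and −0.016 without WT replicate 3, the highest value with 1 array left out being 0.0561. Pglyrp1 was 0.11 with the percentile over detected probes, 0.005 with cyclic loess and 0.047 without ATF3 KO replicate 4. The cause was not tested. Of the gene lists, 1 gene of the inhibitors and receptors passed with normexp, trend and robust variances and no scaling, and 1 paralog with no scaling. Replicate numbers did not pair the samples (correlations of same-numbered deviations 0.19, −0.13, −0.27 and 0.18). With the replicate block 61 genes were called higher and 11 lower.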
